A study of Mus musculus with 39 samples.

Results

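The genes of the interleukin 1 (IL-1) family and tumour necrosis factor (TNF) examined here were 8 in number, Il1a, Il1b, Il1rn, Il1r1, Il1r2, Il18, Il33 and Tnf, of 16879 genes that the array annotation names. They were taken by symbol alone, and each had 1 probe. RNA came from the left lungs of 39 male mice of a C57BL/6 and CBA cross, a piece of whole lung tissue from 1 mouse per array, so that fewer cells of a type and less RNA per cell cannot be told apart. Mice breathed mainstream tobacco smoke (MTS) through the nose for 6 weeks (6 week smoke) or 12 weeks (12 week smoke), or smoked for 6 or 12 weeks and then had a 6 week break (6 week and 12 week smoke and break). By the labels lungs were taken 3 h after the last exposure, which the study's design gives for the groups without a break. The matching sham groups were held in restrainers without smoke (6 week sham, 12 week sham, 6 week break sham and 12 week break sham). All groups were young adults at the start and all carried the same genotype. By the sample titles each held 5 mice except 12 week smoke with 4. The measure is the log2 ratio of Cy5 signal from lung to Cy3 signal from a universal mouse reference RNA on a 2-colour Agilent array. It is a level relative to that reference for each probe, and levels of different genes are not set against each other.

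IL-1 alpha and IL-1 beta are released by stressed or activated cells and signal through IL-1 receptor type 1, which recruits MyD88 and leads to NF-kappaB activation. The IL-1 receptor antagonist and the type 2 decoy receptor limit that signal, while IL-18 and IL-33 act through receptors of their own and TNF through the TNF receptors. In the lung, IL-1 beta comes mainly from myeloid cells, IL-18 from macrophages and epithelium, IL-33 from epithelial and other structural cells, and TNF from macrophages and lymphocytes.

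Of the ligands, Il1b lies at chr2:129364569-129371164 in GRCm38.p6, next to Il1a at chr2:129299609-129310186. Il18 lies at chr9:50554700-50581841, Il33 at chr19:29925113-29960718 and Tnf at chr17:35199367-35202007. The antagonist gene Il1rn lies at chr2:24336860-24351491. The receptor genes Il1r2, at chr1:40084692-40125230, and Il1r1, at chr1:40222480-40316201, are near each other. The promoter windows of Il1b, Il18 and Tnf, from 250 bases before the start site to 50 after it in RefSeq (GRCm38.p6), are shown because Il1b had the widest spread among lungs, Il18 had the lowest p with smoke, and Tnf is the TNF gene of the set.
Il1b, chr2:129371090-129371389, minus strand: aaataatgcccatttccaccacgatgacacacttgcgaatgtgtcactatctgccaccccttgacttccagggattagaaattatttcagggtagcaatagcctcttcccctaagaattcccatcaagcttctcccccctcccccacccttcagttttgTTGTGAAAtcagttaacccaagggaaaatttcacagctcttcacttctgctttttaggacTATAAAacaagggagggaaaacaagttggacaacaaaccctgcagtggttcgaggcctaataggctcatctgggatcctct
Il18, chr9:50554450-50554749, plus strand: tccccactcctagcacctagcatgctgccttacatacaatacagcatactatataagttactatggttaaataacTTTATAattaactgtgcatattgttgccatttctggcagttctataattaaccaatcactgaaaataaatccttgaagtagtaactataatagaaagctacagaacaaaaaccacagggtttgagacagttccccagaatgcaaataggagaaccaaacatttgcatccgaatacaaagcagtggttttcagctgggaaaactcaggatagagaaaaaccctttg
Tnf, chr17:35201958-35202257, minus strand: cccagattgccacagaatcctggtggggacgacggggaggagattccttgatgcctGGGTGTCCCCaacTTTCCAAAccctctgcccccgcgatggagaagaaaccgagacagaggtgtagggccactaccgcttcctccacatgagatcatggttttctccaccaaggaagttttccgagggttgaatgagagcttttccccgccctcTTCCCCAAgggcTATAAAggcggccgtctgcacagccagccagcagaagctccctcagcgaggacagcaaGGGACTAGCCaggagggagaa
Capitals mark any match on either strand to 4 patterns. These are a loose NF-kappaB pattern (GGG, any 5 bases, then CC), the AP-1 pattern TGANTCA, the C/EBP pattern TTNNGNAA and the TATA box pattern TATAAA, and matches of different patterns may overlap. The Il1b window held the C/EBP pattern at position -91 from the start site (TTGTGAAA) and the TATA box pattern at -31. The Tnf window held the NF-kappaB pattern at -194 (GGGTGTCCCC) and at 30 (GGGACTAGCC). It also held the C/EBP pattern at -181 (TTTCCAAA) and at -41 (TTCCCCAA), and the TATA box pattern at -29. The Il18 window held only the reverse complement of the TATA box pattern, at -175 (TTTATA). Among the 32851 promoters of this length in the table, 50.8% held the NF-kappaB pattern, 7.81% the AP-1 pattern, 40.7% the C/EBP pattern and 13.6% the TATA box pattern, so a match describes the letters and is not a site.

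Lung signal differed widely in how well it supported each gene. A probe was taken as above background on an array where its Cy5 signal passed a threshold set from the negative control spots. Il1b, Il1r1, Il18 and Il33 were above it on 39 of 39 arrays, Il1r2 on 35, Tnf on 31 and Il1a on 22. The median Cy5 signal was 43.1 times the threshold for Il33, 16.4 times for Il1r1, 8.04 times for Il1b and 7.56 times for Il18, but only 1.38 times for Tnf, 1.29 times for Il1r2 and 1.08 times for Il1a. Il1rn was above it on 4 arrays, at most 1 in a group, and was not tested, so its signal was not well above background in any group. The other 7 genes were among the 17560 probes that were tested. The reference also held little of some of them, and its Cy3 signal passed its own threshold on 8 arrays for Il1a, 4 for Il1r2 and 23 for Il1b, so those ratios rest on a dim denominator. The image software marked a spot of the probe on 39 arrays for Il1a and for Il1r2, 38 for Il1rn and 35 for Il1b. It did so on 20 for Tnf, 1 for Il18 and 0 for Il1r1 and Il33.

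Across all arrays, 48.4% to 94.6% of probes were above the Cy5 threshold. The smoke-responsive gene Cyp1a1, a cytochrome P450, was at 5.07 to 8.06 in the smoke groups without a break and at 0.45 to 2.81 in every other array but the array labelled 6 week sham replicate 2, which had 6.46. That array also had Cyp1b1 at 2.00 and Nqo1 at 0.55, both within the range of the smoke groups without a break, and it was kept under its label. Whether that label is right was not tested. Values without that array are given beside the results they bear on most. The lung markers Sftpc, Scgb1a1 and Pecam1 had group means of at least 3.12, 2.42 and 1.89.

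**Figure D1:**
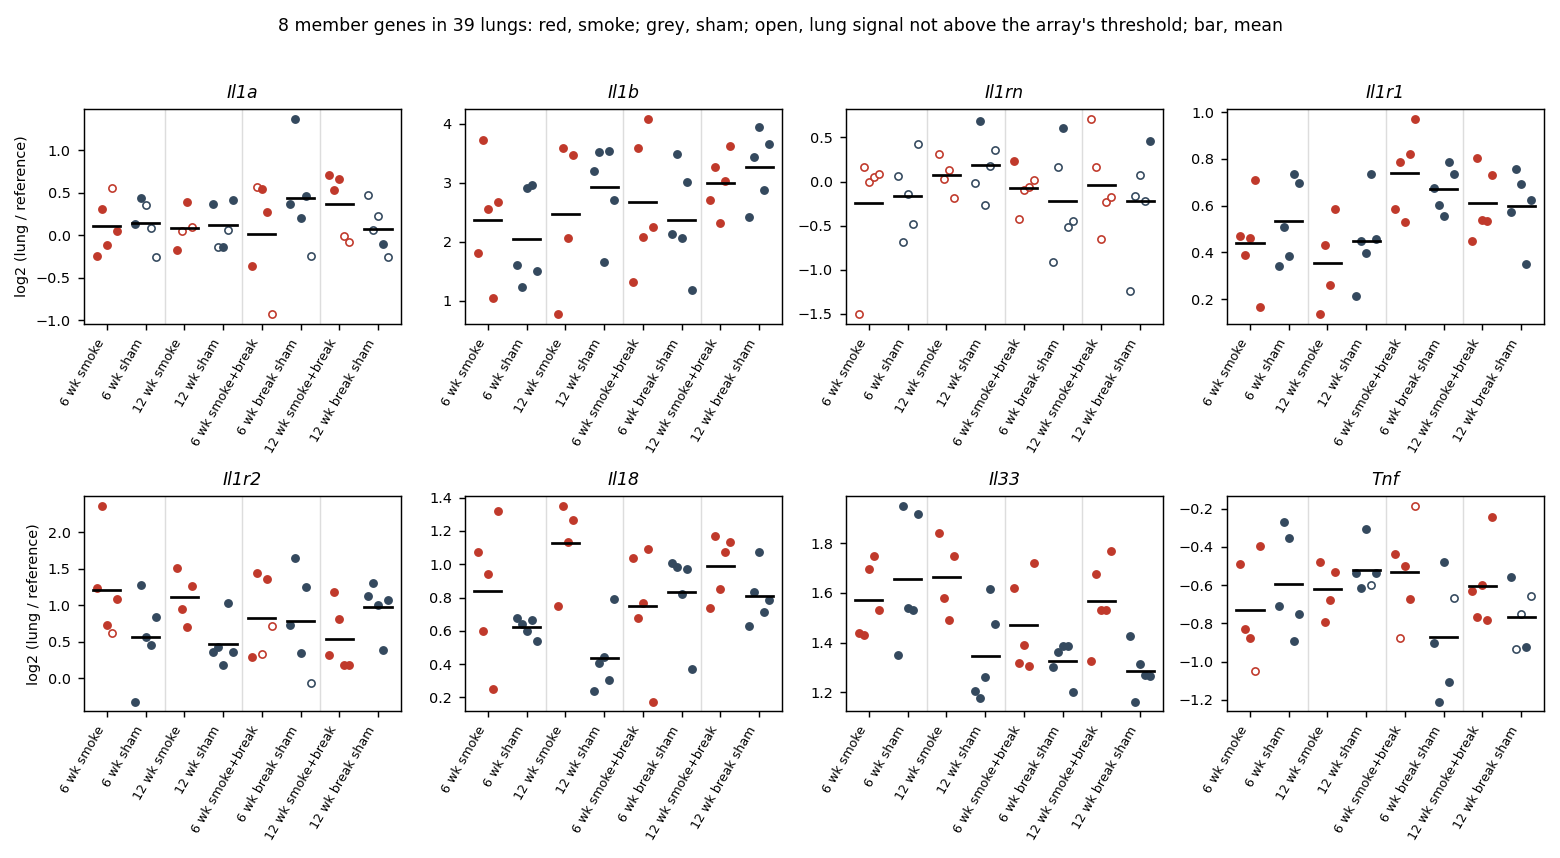
Log2 ratio of lung to reference (vertical axis) of the 8 genes in each of 39 lungs, by group along the horizontal axis, with smoke in red, sham in dark blue-grey, open circles for lung signal not above the threshold and bars for group means. Every gene's smoke and sham groups overlap, and Il18 at 12 weeks of smoke, 0.75 to 1.35, meets 12 week sham, 0.24 to 0.79, at 1 lung of each group.

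No gene of the 8 passed the threshold, a Benjamini-Hochberg adjusted p under 0.05 over all tested probes in limma, in any of the 10 comparisons made. After 6 weeks of smoke 0 of 7 passed against 0.0626% of all probes, and at 12 weeks 0 of 7 against 0.433%. With smoke averaged over both durations, 0 of 7 passed against 1.22% of all probes. Between smoke and break and break sham, 0 of 7 passed with all probes at 0% for 6 weeks, at 0% for 12 weeks and at 0% over both durations. At an unadjusted p under 0.05, 0 of the 7 were found at 6 weeks of smoke, against 1477 (8.41%) of all probes. At 12 weeks 3 were found (Il18, Il33 and Il1r2), against 1645 (9.37%). After 6 weeks of smoke and break 1 was found (Tnf), against 758 (4.32%), and after 12 weeks of smoke and break 1 (Il33), against 1129 (6.43%). Between shams, with no smoke, 4 were found for break sham against sham (Il1r1, Il18, Il33 and Tnf), against 12.9% of all probes. For 12 week against 6 week sham 1 was found (Il33), against 6.86%. In no comparison of a smoke group with its sham were the arrays of any of the 7 genes free of overlap, which held for 0.849% of all probes at 6 weeks, 3.37% at 12 weeks, 0.49% at 6 weeks with a break and 0.757% at 12 weeks with a break.

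Il18 encodes a cytokine that is cleaved by caspase-1 and drives interferon gamma production. In 12 week smoke its log2 ratios were 0.75, 1.35, 1.14 and 1.27, against 0.24, 0.41, 0.44, 0.30 and 0.79 in 12 week sham. All but 1 of the smoke lungs lay above every sham lung, and only the highest sham lung exceeded the lowest smoke lung. The fitted difference was 0.63 on the log2 scale (SE 0.16, 95% interval 0.31 to 0.95), or 1.55-fold, with an unadjusted p of 0.000385 and an adjusted p of 0.0743. In 6 week smoke the ratios were 1.07, 0.60, 0.94, 0.25 and 1.32, against 0.68, 0.64, 0.60, 0.67 and 0.54 in 6 week sham. The smoke lungs were spread out (mean 0.84 ± 0.42, SD, n = 5) on both sides of the sham lungs, which were close together (mean 0.62 ± 0.06, SD, n = 5). The fitted difference at 6 weeks was 0.16 (SE 0.15, adjusted p = 0.839). Averaged over both durations the difference was 0.39 (95% interval 0.17 to 0.62, unadjusted p = 0.00114, adjusted p = 0.0691), and without the array labelled 6 week sham replicate 2 it was 0.42 (adjusted p = 0.0507).

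The call on Il18 depended on the setting. With arrays weighted by their quality it passed at 12 weeks (0.66, adjusted p = 0.0108) and over both durations (0.41, adjusted p = 0.0181), where 1.16% and 2.33% of all probes passed. With spots marked by the image software left out it also passed at 12 weeks (0.60, adjusted p = 0.0243) and over both durations (0.37, adjusted p = 0.0277), with 1.42% and 4.61% of the 9238 probes then tested. Leaving out 6 week smoke replicate 4, 6 week smoke replicate 5 or 6 week smoke and break replicate 5 gave adjusted p of 0.0476, 0.0388 and 0.0439 at 12 weeks, although none of these lungs is in that comparison, and without the first and the last of them Il18 also passed over both durations (adjusted p = 0.0322 and 0.0435). On Cy5 signal alone the 12 week difference was 0.60 with an adjusted p of 0.265. The size of the 12 week difference lay between 0.54 and 0.69 over 14 other settings and between 0.54 and 0.74 with each of 39 arrays left out.

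After the break the Il18 groups lay closer to each other. In 12 week smoke and break its ratios were 0.73, 1.17, 0.85, 1.07 and 1.13, against 0.63, 0.83, 1.08, 0.72 and 0.79 in 12 week break sham, and the fitted difference was 0.18 (SE 0.15, adjusted p = 0.858). In 6 week smoke and break they were 1.04, 0.68, 0.77, 1.09 and 0.17, against 1.01, 0.98, 0.82, 0.97 and 0.37 in 6 week break sham, with a difference of -0.08 (SE 0.15, adjusted p = 0.999). The groups overlapped in both pairs, with 2 of the 12 week smoke and break lungs above every 12 week break sham lung. The 12 week smoke and break mean was 0.99, against 1.13 in 12 week smoke. The 12 week break sham mean was 0.81, against 0.44 in 12 week sham, so the sham level differed more than the smoke level. Over both durations Il18 was higher in break sham than in sham by 0.26 (95% interval 0.05 to 0.48). The smoke effect without a break exceeded the one with a break by 0.34 (95% interval 0.03 to 0.65, unadjusted p = 0.031, adjusted p = 0.451), a test in which 0 of the 7 genes and 0.125% of all probes passed. The smoke effect at 12 weeks exceeded that at 6 weeks by 0.47 (95% interval 0.03 to 0.91, unadjusted p = 0.0369, adjusted p = 0.971), where 0% of all probes passed, so a difference between durations was not shown. Without the array labelled 6 week sham replicate 2 it was 0.42 (95% interval -0.04 to 0.88).

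Alveolar macrophage markers were higher with smoke at 12 weeks, as Il18 was, and also at 6 weeks, where the Il18 difference was small. Of 10 listed markers 8 were tested, and all 8 were higher in 12 week smoke than in 12 week sham, with a median log2 difference of 0.59 against 0.01 over all probes, though 0 passed singly at 12 weeks and 3 passed over both durations (Chil3, Itgax and Marco). The mean log2 ratio of the 8 markers was 1.81 to 2.08 in 12 week smoke and 1.07 to 1.74 in 12 week sham, and the sham lung with the highest Il18 was also the one with the highest marker mean. At 6 weeks the marker mean was 1.79 to 2.59 in smoke and 1.17 to 1.81 in sham, with a median difference of 0.64. The fitted Il18 difference at 6 weeks was 0.16. Over the 39 arrays, with the mean of each run of arrays subtracted, 4 of the 8 correlated with Il18 above 0.5, and Pearson's r had a median of 0.51 and a range of 0.13 (Fabp4) to 0.66 (Cd68). The genes most like Il18 on the whole array were Clec7a (r = 0.75), Clec4n (r = 0.74) and Ctss (r = 0.73), which encode the lectins Dectin-1 and Dectin-2 and the lysosomal protease cathepsin S. Ctss was itself 1.11 higher on the log2 scale in 12 week smoke than in 12 week sham (adjusted p = 0.0331). Group means were left in the correlations given here, so that rise is not separate from the likeness. Some other marker lists were also wholly higher in that comparison, with smaller medians. They were endothelial (5 of 5, median 0.26), alveolar type I (4 of 4, 0.16), mast cell and basophil (4 of 4, 0.17) and blood (2 of 2, 0.15). Of the monocyte markers 0 of 3 were higher, and the remaining lists were mixed. The points share arrays, hybridisations and tissue pieces, and the part of macrophage number in the Il18 values was not tested.

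**Figure D2:**
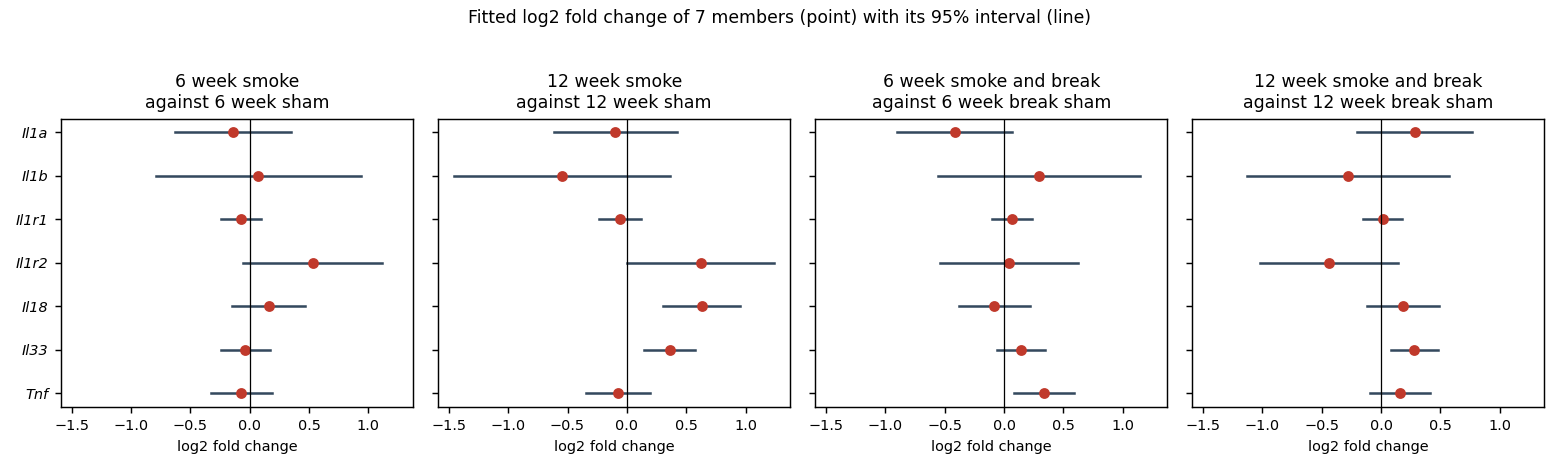
Fitted log2 fold change (horizontal axis) of the 7 tested genes in 4 panels, each a smoke group against its sham, with a point for the estimate and a line for its 95% interval. At 12 weeks Il18 (0.63), Il1r2 (0.62) and Il33 (0.36) have intervals that lie above 0, that of Il1r2 by the least, and the interval of Il1b is the widest at -1.46 to 0.36.

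Il33, an alarmin held in the nucleus of structural cells and released on damage, differed in the same 12 week comparison. Its ratios were 1.84, 1.58, 1.49 and 1.75 in 12 week smoke, against 1.21, 1.18, 1.26, 1.62 and 1.47 in 12 week sham. Of the 5 sham lungs 1 lay within the smoke range and the others below it. The difference was 0.36 (SE 0.11, 95% interval 0.15 to 0.58), or 1.29-fold, with an unadjusted p of 0.00168 and an adjusted p of 0.155. At 6 weeks the ratios were 1.44, 1.43, 1.70, 1.75 and 1.53 in smoke, against 1.35, 1.95, 1.54, 1.53 and 1.92 in sham, and the difference was -0.04 (SE 0.10, adjusted p = 0.961). The 6 week sham lungs spanned the whole range of the smoke lungs. The 12 week difference exceeded the 6 week difference by 0.40 (95% interval 0.11 to 0.69, unadjusted p = 0.0094, adjusted p = 0.971), so a difference between durations was not shown. Without the array labelled 6 week sham replicate 2, which had the 1.95, it was 0.35 (95% interval 0.05 to 0.65, adjusted p = 0.978).

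A difference of smaller size in Il33 was measured after the 12 week break. Ratios were 1.33, 1.68, 1.53, 1.53 and 1.77 in 12 week smoke and break, against 1.43, 1.16, 1.31, 1.27 and 1.27 in 12 week break sham, so that 4 of the 5 smoke and break lungs were above every sham lung. The difference was 0.28 (SE 0.10, 95% interval 0.08 to 0.48, unadjusted p = 0.00783, adjusted p = 0.672). After 6 weeks of smoke and the break the ratios were 1.62, 1.32, 1.39, 1.31 and 1.72, against 1.30, 1.36, 1.39, 1.38 and 1.20 in 6 week break sham, a difference of 0.14 (SE 0.10, adjusted p = 0.999). Over both durations the difference after the break was 0.21 (95% interval 0.07 to 0.35, unadjusted p = 0.00465, adjusted p = 0.693). On Cy5 signal alone the differences after the break were 0.08 at 12 weeks (95% interval -0.29 to 0.45) and 0.12 over both durations (95% interval -0.14 to 0.38). The smoke effects without and with a break differed by -0.05 (95% interval -0.26 to 0.16).

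The sham groups of Il33 also differed in their means, although their lungs overlapped. The 12 week sham lungs ran from 1.18 to 1.62 and the 6 week sham lungs from 1.35 to 1.95. The 12 week sham mean was 1.35 ± 0.19 and the 6 week sham mean 1.66 ± 0.26 (SD, n = 5 each), a fitted difference of -0.26 (95% interval -0.46 to -0.06, unadjusted p = 0.014, adjusted p = 0.647). Smoke-exposed lungs had means of 1.66 ± 0.16 at 12 weeks (SD, n = 4) and 1.57 ± 0.15 at 6 weeks (SD, n = 5). In that comparison of shams 0 of the 7 genes and 0% of all probes passed. Without the array labelled 6 week sham replicate 2 the gap between shams was -0.22. Break sham differed from sham by -0.17 over both durations (95% interval -0.31 to -0.03, unadjusted p = 0.0216, adjusted p = 0.285). The genes whose pattern over 39 arrays was most like that of Il33 were E2f6 (r = 0.73), Arl1 (r = 0.72) and Zfp639 (r = 0.71).

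Tnf, a cytokine made as a membrane protein and shed, had small differences at the end of exposure. Its ratios were -0.49, -0.83, -0.87, -1.05 and -0.40 in 6 week smoke, against -0.71, -0.27, -0.35, -0.89 and -0.75 in 6 week sham, and -0.48, -0.79, -0.68 and -0.53 in 12 week smoke, against -0.54, -0.62, -0.31, -0.60 and -0.54 in 12 week sham. Both fitted differences were -0.07 (SE 0.13 each, adjusted p = 0.931 and 0.937), with 95% intervals of -0.33 to 0.19 at 6 weeks and -0.34 to 0.20 at 12 weeks. The arrays of the groups were mixed at both durations. After the 6 week break the ratios were -0.43, -0.88, -0.50, -0.67 and -0.19 in 6 week smoke and break, against -0.90, -1.21, -0.48, -1.11 and -0.67 in 6 week break sham. Here 4 of the 5 sham lungs were below the median of the smoke and break lungs. The groups overlapped, at -0.88 to -0.19 in smoke and break and -1.21 to -0.48 in break sham. The difference was 0.34 (SE 0.12, 95% interval 0.09 to 0.59), or 1.27-fold, with an unadjusted p of 0.0102 and an adjusted p of 0.999. On Cy5 signal alone it was 0.25 (95% interval -0.15 to 0.66), and 3 of the 5 lungs of 6 week smoke and break were above the threshold.

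For Tnf after 12 weeks and the break the difference had the same sign and was smaller. Ratios were -0.63, -0.77, -0.60, -0.78 and -0.24 in 12 week smoke and break, against -0.56, -0.94, -0.75, -0.93 and -0.66 in 12 week break sham, a difference of 0.16 (SE 0.12, adjusted p = 0.858). Over both durations it was 0.25 (95% interval 0.07 to 0.43, unadjusted p = 0.00794, adjusted p = 0.713), and on Cy5 signal alone 0.25 (95% interval -0.03 to 0.54). The break sham groups had the lowest Tnf means of all, -0.87 ± 0.30 at 6 weeks and -0.77 ± 0.17 at 12 weeks (SD, n = 5 each). Against sham without a break, break sham differed by -0.23 (95% interval -0.41 to -0.05, unadjusted p = 0.0141, adjusted p = 0.241). Tnf signal was below the threshold on 8 of 39 arrays, among them 3 of the 5 lungs of 12 week break sham. The nearest patterns were those of Apex2 (r = 0.63), Krt16 (r = 0.63) and Scg5 (r = 0.62).

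**Figure D3:**
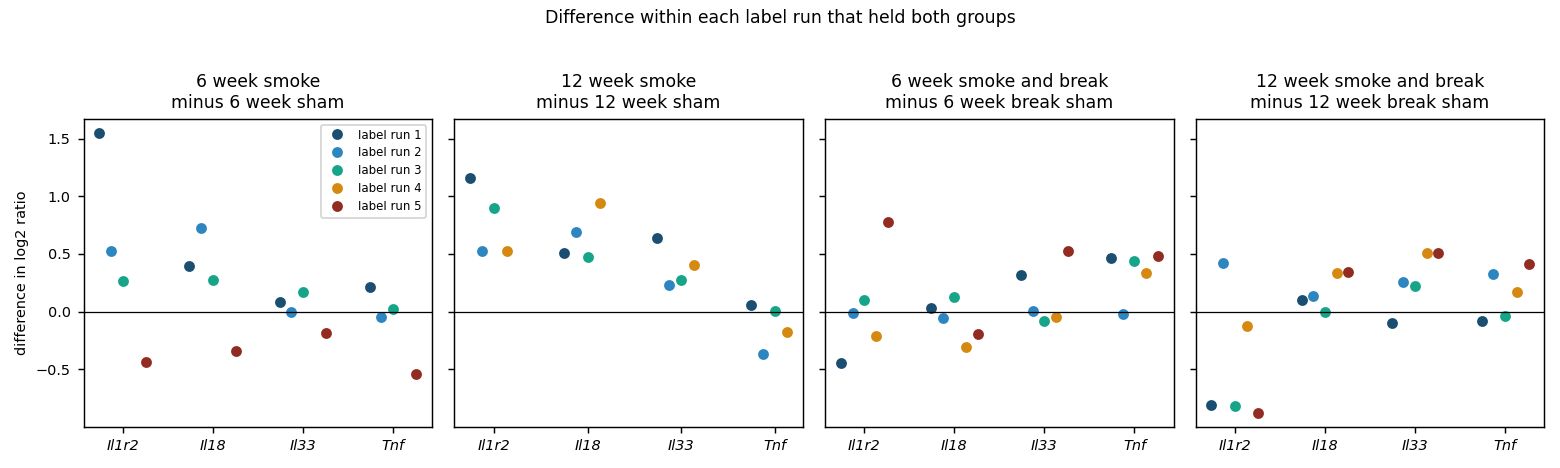
Difference in log2 ratio (vertical axis) between a smoke group and its sham within each run of arrays that held both, for Il1r2, Il18, Il33 and Tnf (horizontal axis), with a colour for each of 5 runs. At 12 weeks of smoke all 4 runs lie above 0 for Il1r2, Il18 and Il33, whereas Tnf has 2 of 4 above 0.

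The arrays fell into 5 runs in the sequence of the exposure dates that the labels give, most with 1 array of each group, and the runs were a block in the fit. The run of the array labelled 6 week sham replicate 2 held another 6 week sham array and no 12 week smoke array. That array stood between 6 week break sham and 12 week sham, where every other run had its 12 week smoke array. Within the 4 runs that held both groups at 12 weeks, the smoke minus sham difference of Il18 was 0.47 to 0.94 and that of Il33 was 0.23 to 0.63, above 0 in all 4 for both. For Il1r2 it was 0.52 to 1.16, also above 0 in 4 of 4. Each is a difference of 1 array from 1 array, and the arrays are those of the fit. As these genes had an unadjusted p under 0.05 in that fit, their signs within runs are no further test. Il1b was above 0 in 3 of 4 runs, although its fitted difference at 12 weeks was -0.55. At 6 weeks Il18 was above 0 in 3 of 4 runs (-0.34 to 0.72) and Il33 in 2 of 4 (-0.18 to 0.17). After the break Tnf was above 0 in 4 of 5 runs for 6 weeks (-0.02 to 0.48) and Il33 in 4 of 5 for 12 weeks (-0.10 to 0.51).

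Il1r2 encodes the decoy receptor that binds IL-1 without signalling, and when both durations were averaged its difference with smoke was the largest of the 7 genes. Ratios in 6 week smoke were 1.23, 2.36, 0.72, 0.62 and 1.09, against -0.32, 1.27, 0.56, 0.46 and 0.84 in 6 week sham, a difference of 0.53 (SE 0.29, adjusted p = 0.646), or 0.69 (95% interval 0.09 to 1.29, adjusted p = 0.446) without the array labelled 6 week sham replicate 2. In 12 week smoke they were 1.51, 0.95, 0.70 and 1.26, against 0.36, 0.43, 0.18, 1.02 and 0.36 in 12 week sham, a difference of 0.62 (SE 0.30, unadjusted p = 0.049, adjusted p = 0.529). At 12 weeks 4 of the 5 sham lungs were below every smoke lung. Averaged over both durations the difference was 0.58 (95% interval 0.15 to 1.01), or 1.49-fold (unadjusted p = 0.0103, adjusted p = 0.209), and it was 0.65 (adjusted p = 0.117) without the array labelled 6 week sham replicate 2.

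After the break the differences in Il1r2 were near or below 0. Ratios were 0.29, 1.44, 0.33, 1.36 and 0.72 in 6 week smoke and break, against 0.73, 1.64, 0.34, 1.25 and -0.06 in 6 week break sham, a difference of 0.04 (SE 0.28, adjusted p = 0.999). In 12 week smoke and break they were 0.31, 1.18, 0.81, 0.18 and 0.19, against 1.12, 1.30, 1.00, 0.38 and 1.07 in 12 week break sham, a difference of -0.44 (SE 0.28, adjusted p = 0.824). Both pairs overlapped. The smoke effects without and with a break differed by 0.77 (95% interval 0.18 to 1.37, unadjusted p = 0.0123, adjusted p = 0.344). The image software marked a spot of this probe on 39 of 39 arrays, and the probes with the nearest pattern, Arhgap8 (r = 0.68), Slc6a4 (r = 0.67) and Zfp869 (r = 0.67), were read on the same arrays.

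Il1b, the ligand made as a precursor and cleaved by caspase-1, differed most from lung to lung. Its ratios were 1.81, 3.72, 2.56, 1.05 and 2.67 in 6 week smoke, against 1.61, 1.24, 2.92, 2.97 and 1.51 in 6 week sham, and 0.77, 3.58, 2.07 and 3.47 in 12 week smoke, against 3.20, 3.53, 1.66, 3.53 and 2.71 in 12 week sham. Smoke and sham lungs overlapped over most of the range. The differences were 0.07 at 6 weeks (SE 0.42, 95% interval -0.79 to 0.93, adjusted p = 0.985), or -0.09 without the array labelled 6 week sham replicate 2, and -0.55 at 12 weeks (SE 0.44, 95% interval -1.46 to 0.36, adjusted p = 0.784). Within runs the 12 week difference was -2.43 in the run with the smoke lung at 0.77 and 0.41, 0.76 and 0.05 in the other 3, and without that lung, 12 week smoke replicate 1, the fitted difference was -0.19. After the break the ratios were 1.32, 3.59, 2.08, 4.08 and 2.26 in 6 week smoke and break, against 2.13, 3.48, 2.06, 3.01 and 1.18 in 6 week break sham, and 2.71, 3.26, 2.32, 3.03 and 3.61 in 12 week smoke and break, against 2.42, 3.43, 3.94, 2.88 and 3.66 in 12 week break sham. The differences were 0.29 (SE 0.42, adjusted p = 0.999) and -0.28 (SE 0.42, adjusted p = 0.939). Intervals of this width leave room for changes of either sign. At this number of lungs a change in Il1b was not detected, and its absence was not shown.

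Over the 39 lungs Il1b ran between 0.77 and 4.08 on the log2 scale, a 9.93-fold range. Its residual SD of 0.69 was larger than that of 98.7% of tested probes, whose median was 0.25. S100a8, a calcium-binding protein abundant in neutrophils, was the gene most like it (r = 0.79), followed by Snx20 (r = 0.76) and Csf3r (r = 0.75), the receptor for granulocyte colony-stimulating factor. Of 8 tested neutrophil markers 5 correlated with Il1b above 0.5 (S100a8, Csf3r, Mmp8, Cxcr2 and S100a9), Camp and Mpo had r of 0.35 and 0.26, Ltf had -0.14, and the median was 0.58. Between 12 week smoke and 12 week sham 0 of the 8 markers passed, 4 of 8 were higher and the median log2 difference was -0.00, and at 6 weeks 0 of 8 passed, 7 of 8 were higher and the median was 0.20. The 12 week smoke lung with the lowest Il1b of all, 0.77, also had the lowest mean of the neutrophil markers in its group, 0.49, where the group's highest was 2.16. Of 3 tested monocyte markers F13a1 and Ccr2 correlated with Il1b at r of 0.58 and 0.48 and Vcan at -0.21. All 3 were lower in 12 week smoke than in 12 week sham, with a median log2 difference of -0.81, and 0 passed. The part of neutrophil or monocyte number in the Il1b values was not tested.

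**Figure D4:**
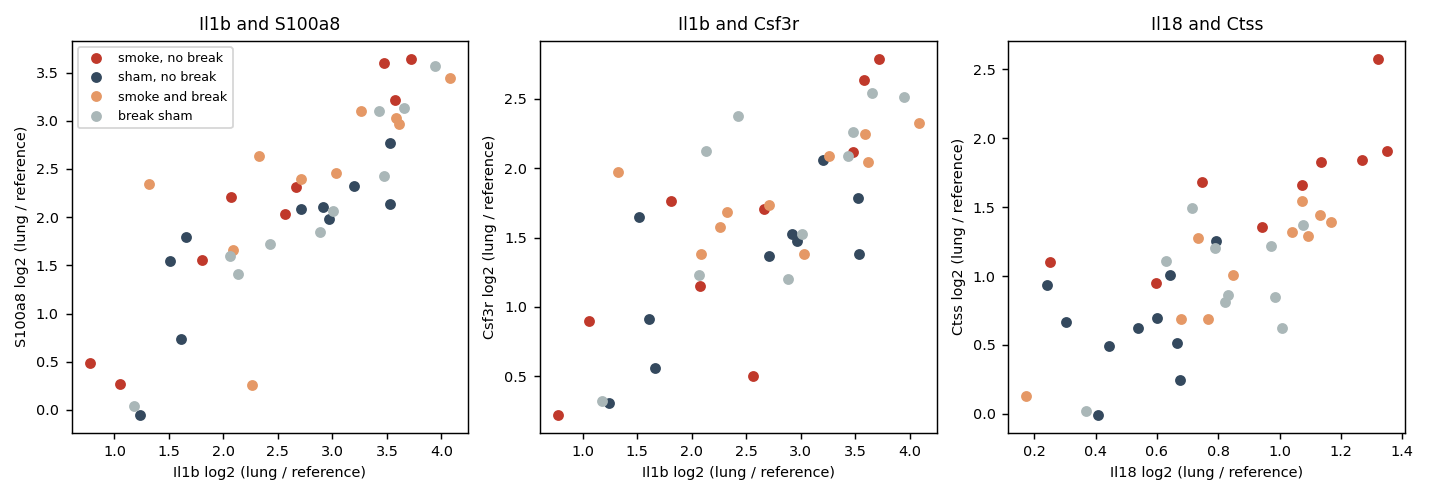
Log2 ratio of S100a8 against Il1b, of Csf3r against Il1b and of Ctss against Il18, with 1 point for each of 39 arrays coloured by smoke or sham, with or without a break. The S100a8 and Csf3r points rise with Il1b in every colour, and smoke lungs without a break reach the highest Ctss, up to 2.58.

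Il1r1, the signalling receptor, and Il33 had the narrowest ranges over the 39 lungs, 0.84 and 0.79 on the log2 scale. The ratios of Il1r1 ran from 0.13 to 0.97 over all lungs, with group means between 0.35 (12 week smoke) and 0.74 (6 week smoke and break), and its residual SD of 0.11 was smaller than that of all but 3.47% of tested probes. The smoke differences were -0.07, -0.06, 0.07 and 0.01 in 6 week smoke, 12 week smoke, 6 week smoke and break and 12 week smoke and break, each against its sham, with SE of 0.08 or 0.09. The 95% intervals reached no further than -0.24 and 0.23 on the log2 scale. The groups with a break had higher means than those without, and break sham exceeded sham by 0.15 (95% interval 0.03 to 0.27, unadjusted p = 0.0128, adjusted p = 0.232), a comparison in which 0 of the 7 genes and 0.911% of all probes passed. Its closest patterns were Igsf3 (r = 0.85), Tiam1 (r = 0.77) and Scly (r = 0.76).

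Il1a, whose product is active without cleavage, gave ratios between -0.93 and 1.37, and 17 of 39 lungs were not above background. Its differences were -0.14 at 6 weeks of smoke, -0.10 at 12 weeks, -0.42 after 6 weeks of smoke and the break and 0.28 after 12 weeks of smoke and the break, with SE of 0.24 or 0.25 and adjusted p between 0.865 and 0.999. Il1rn, the antagonist, had ratios between -1.51 and 0.71, and the 4 lungs above background (0.23 in 6 week smoke and break, 0.69 in 12 week sham, 0.60 and 0.47 among lungs of the break shams) came from 4 groups. No fold change is given for it.

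The order of the 8 group means differed from gene to gene. Il18 was highest in 12 week smoke (1.13 ± 0.27, SD, n = 4) and lowest in 12 week sham (0.44 ± 0.21, SD, n = 5). Il33 was likewise highest in 12 week smoke but lowest in 12 week break sham, Il1r2 was highest in 6 week smoke and lowest in 12 week sham, and Il1b was highest in 12 week break sham and lowest in 6 week sham. Tnf was highest in 12 week sham and lowest in 6 week break sham. For none of the 7 genes did any of the 7 neighbouring pairs in that order have a 95% interval that excluded 0. Correlations between pairs of the genes from lung to lung were modest, and dim signal limits what those of Il1a, Il1r2 and Tnf can show. The highest pairwise r over 39 arrays, run means subtracted, was 0.33 for Il18 with Il33, and the lowest was -0.40 for Il1a with Tnf.

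Other genes of the pathway were read from 6 lists, 70 of whose genes were tested. At 6 weeks of smoke 1 of 70 passed and at 12 weeks 3 of 70, all higher with smoke, against 0.0626% and 0.433% of all probes. Over both durations 3 passed as higher and 1 as lower, against 1.22% of all probes, after the break 0 of 70 and 0% of all probes passed at either duration, and between break sham and sham 2 of 70 passed as higher, against 0.911% of all probes. Without the array labelled 6 week sham replicate 2, Il6 also passed over both durations (0.77, adjusted p = 0.0447). The lists were chosen with earlier results of these data known. The study had itself called Tnfaip2, Il6 and Ptgs2 from these arrays, so the shares passing in the lists are no test of the pathway. Among ligands and decoys outside the 8 genes 0 of 3 tested passed with smoke, and among IL-1 family receptors outside them 0 of 2. Most listed receptors were not tested, among them Il1rl1, for which no probe was found, and Il1rap, Il1rl2 and Il18rap, which did not pass the filter. Of 11 inflammasome genes 0 passed, and the median log2 difference was -0.06 at 6 weeks and -0.06 at 12 weeks. The widest change among these was that of Mefv, the pyrin gene, at -0.82 (SE 0.34, adjusted p = 0.414) in 12 week smoke. Of 15 genes of MyD88 and IRAK signalling 0 passed. In the same comparison P2rx7, an ATP-gated channel upstream of the inflammasome, was at -0.33 and the adaptor genes Traf6 and Tab2 were at -0.20 and -0.26. Il18bp, whose product binds free IL-18, was at 0.21, Il1f5, the IL-36 receptor antagonist gene, at 0.24, Il18r1 at -0.14 and Sigirr, an inhibitory receptor gene, at -0.02, with adjusted p for these 7 between 0.438 and 0.981.

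Tnfaip2, a TNF-inducible gene, was 1 of 19 tested genes in the TNF list and rose at both durations. Its ratios were -0.72, -0.94, -1.15, -1.13 and -0.74 in 6 week smoke, against -1.74, -1.47, -1.43, -1.56 and -1.44 in 6 week sham. In 12 week smoke they were -0.97, -0.63, -0.68 and -0.67, against -1.13, -1.36, -1.48, -1.44 and -1.17 in 12 week sham. The smoke lungs were above every sham lung at both durations. The log2 differences were 0.57 at 6 weeks (SE 0.11, adjusted p = 0.0305) and 0.56 at 12 weeks (SE 0.12, adjusted p = 0.0163). The Tnfaip2 call was lost at 6 weeks without smoke replicate 1, 2 or 5 or sham replicate 1 or 4 (adjusted p 0.0523 to 0.198), and at 12 weeks without smoke replicate 2, 3 or 4 or sham replicate 2 or 3 (adjusted p 0.0628 to 0.0911). With only the groups compared in the fit, the Tnfaip2 calls at 6 and 12 weeks were also lost (adjusted p = 0.940 and 0.416), as was the 12 week call of Il6 (adjusted p = 0.232). The fitted differences of Tnf in the same comparisons were both -0.07.

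In the list of genes induced by IL-1 or TNF, 2 of 20 passed at 12 weeks, 17 of 20 were higher and the median log2 difference was 0.20 against 0.01 over all probes. At 6 weeks 0 of 20 passed, 9 were higher and the median was -0.01. The 2 were Il6, a cytokine of the acute phase response, and Ptgs2, the inducible cyclooxygenase. Il6 ratios were -0.27, -0.04, 0.06 and -0.89 in 12 week smoke, against -2.34, -1.96, -1.02, -2.54 and -1.64 in 12 week sham, a difference of 1.63 (SE 0.30, adjusted p = 0.00383). Ptgs2 ratios were 0.74, 1.55, 1.11 and 1.58 in 12 week smoke, against -1.09, -0.29, -0.50, -1.14 and -0.18 in 12 week sham, a difference of 1.86 (SE 0.27, adjusted p = 0.000174). In both, every smoke lung was above every sham lung, which was not so for any of the 8 genes.

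Ltb and Il18r1 were called only outside those comparisons. Ltb, encoding lymphotoxin beta of the TNF superfamily, was lower with smoke over both durations (log2 difference -0.47, adjusted p = 0.0455) and higher in break sham than in sham (0.47, adjusted p = 0.0368). Without the array labelled 6 week sham replicate 2 the difference in Ltb between break sham and sham was 0.44 (adjusted p = 0.0765) and was not called. The Ltb calls were also lost without others of the arrays, with adjusted p up to 0.158 for smoke and up to 0.100 for break sham. Il18r1, encoding the IL-18 receptor chain that binds the ligand, was higher in break sham than in sham by 1.01 (SE 0.24, adjusted p = 0.0366), with adjusted p up to 0.106 when single arrays were left out, and the image software marked its spots on 39 of 39 arrays. In the same comparison Il18 was higher by 0.26 (95% interval 0.05 to 0.48, unadjusted p = 0.0189, adjusted p = 0.273). The smoke comparisons and the comparison of shams share the sham arrays, and each is given by its own values.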

How the data were processed

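The authors hybridised Cy5-labelled lung RNA with Cy3-labelled reference RNA, 1 mouse per array, and read the arrays with ImaGene. The deposited scanner files hold intensity of spot and local background for each dye, with no correction. Their own normalised log2 ratios were deposited by the authors too and served as an alternative (correlation with the ratios used here 0.982 to 0.997 per array). The array that the study set aside is not analysed here. Probe symbols came from the platform annotation, with 19 brought up to date through RefSeq, and of 20868 probes 18235 have 1 symbol, 30 several and 2603 none.

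Median signals were corrected by normexp (offset 50), loess-normalised array by array without weight on controls, and averaged over spots of a probe. To be tested, a probe had to exceed in Cy5 the mean of negative controls by 3 SD (both after trimming 5% from each end) on 4 or more arrays of some group, as 17560 probes did. The threshold was a Cy5 signal of 122 to 450, and precision depends on the number of arrays and on signal over it. With R 4.3.3 and limma 3.58.1, a single fit covered all 39 arrays in 8 groups, blocked by 5 runs (7 or 8 arrays each), which were inferred from the sequence of exposure dates in the labels. The study blocked its model on dates of hybridisation and of exposure, so its block may differ. P-values were moderated, two-sided and adjusted by Benjamini-Hochberg over all 17560 probes, with 0.05 as the threshold. The fit was tested on simulated data. Groups come from sample titles, and replicate numbers, given in accession order, only name a lung.

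The 8 genes, the lists (6 of pathway genes, 12 of cell type markers) and the comparisons were chosen with earlier results of these data known. From each list, genes past the threshold in a comparison of a smoke group with its sham were named, with the 2 largest differences at 12 weeks. Single cell type markers were named after their values were seen. Likeness is Pearson's r over 39 arrays after subtracting run means, described without a test, and the 3 probes with the highest r are named. Alternatives were the authors' ratios, other background, normalisation, filter, weights, block and spot choices, and leaving out each array. Promoters came from RefSeq (GRCm38.p6), where all 8 genes had 1 or more, 12 in all.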

Additional observations from a re-analysis of the deposited data

Results flagged for a closer look

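Of 64 groups of arrays, 8 genes in 8 groups, 2 held a lung set far apart from the rest of its group by Dixon's ratio, where chance gives about 1 in 20. Il1rn was at -1.51 in 6 week smoke replicate 1, with the nearest other lung of the group at -0.01 (ratio 0.897), and none of these lungs was above background. Tnf was at -0.31 in 12 week sham replicate 3, the highest of its group, with the next at -0.54 (ratio 0.742). Of 14 tests of whether a smoke effect differed between durations or with the break, 0 passed the threshold.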

How the results depend on the processing

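For the 7 tested genes 70 log2 differences were recomputed under 14 other settings and without each of 39 arrays, 3660 values in all. The sign changed in 106 of them, none with a 95% interval excluding 0. The number of genes past the threshold was 1 rather than 0, by Il18, at 12 weeks of smoke and over both durations when arrays were weighted and when marked spots were left out (1 in each of the 4), and ran from 0 to 1 when an array was left out. It was 0 under every other setting and comparison. With marked spots left out only 3 of the genes could be tested, and averaging over probes of a gene changes nothing for genes with 1 probe. Cy5 signal alone, an alternative chosen after seeing the data, gave no call on the 8 genes.

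Over all probes, counts past the threshold were 11 at 6 weeks of smoke (0 to 27 under other settings), 76 at 12 weeks (11 to 203), 214 over both durations (45 to 426), 22 for the smoke effect without against with a break (67 with marked spots left out, more with array weights and 13 with Cy5 signal alone) and 160 for break sham against sham (47 to 661). Without the array labelled 6 week sham replicate 2 they were 33 at 6 weeks, 91 at 12 weeks, 285 over both durations, 96 for the smoke effect without against with a break and 108 for break sham against sham. Of 2640 values of the named list genes, 76 lost the call and 7 gained it. No paired analysis was possible because the replicate numbers were given in accession order and pair no lungs; lungs of the same run were compared through the block instead. Il1a, Il1r2, Tnf and Il1rn lie near background, which limits what their ratios can show. Lung signal of Il1b was above background on 39 of 39 arrays, but the image software marked a spot of its probe on 35 of them.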
